A study of Rattus norvegicus with 20 samples.

Results

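Glutamate receptor subunits were followed as 9 genes, the AMPA receptor subunits Gria1, Gria2, Gria3 and Gria4 and the NMDA receptor subunits Grin1, Grin2a, Grin2b, Grin2c and Grin2d. They were chosen by name, and all 9 were found among the 30443 genes listed, each with a single entry. RNA was sequenced from 5 regions of 4 adult female wild-type Long-Evans rats of about 6 to 8 months. Each rat received a unilateral contusion of the cervical cord at level 4 (0.7 mm displacement) and, 2 weeks later, electrodes in the opposite motor cortex. In 2 animals the cortex was stimulated for 1 week, 5 hours a day at 10 Hz in cycles of 5 minutes on and 2 minutes off, at 80% of the movement threshold. The 2 control rats carried the same injury and array and were connected with the current off. Regions 1 and 2 were labelled subcortical white matter, below the array and on the opposite side. Regions 3, 4 and 5 were spinal cord with gray and white matter, rostral to the injury, at the lesion and caudal to it, at about cervical levels 2 to 4, 4, and 4 to 6 in the labels, while the study text places region 5 lower. No uninjured animal was included, so every level is that of an injured and implanted rat.

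AMPA receptors are tetramers of Gria products and carry most fast excitatory transmission. The Gria2 product, once its transcript is edited, makes the channel nearly impermeable to calcium, and the Gria4 product gives fast kinetics and is common in hindbrain and spinal neurons. NMDA receptors contain the obligatory Grin1 product, which binds glycine or D-serine, together with Grin2 products, which bind glutamate. In rodents, Grin2b and Grin2a dominate the forebrain, Grin2c is found in cerebellar granule cells and in astrocytes, and Grin2d is found in the brainstem, diencephalon and spinal cord.

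Expression was given as FPKM, the number of sequenced fragments scaled by gene length and by library size, with smaller values raised to 0.1. Levels of different genes are thus per length. Setting them side by side rests on the annotated lengths, which were not checked. Of the genes listed, 15210 reached 1 FPKM in at least 1 of the 20 libraries and were tested, including all 9 receptor genes. Markers of the tissues were read before the receptors. Summed over 5 markers of cortical excitatory neurons, regions 1 and 2 held 258 to 378 FPKM, and the cord held 1.51 to 14.6, with 1 of the 5 at the floor in every cord library. Summed over 5 oligodendrocyte markers, regions 1 and 2 held 662 to 2778 FPKM, and the cord held 7096 to 10380. The blocks labelled white matter therefore carried a large cortical neuron signal and less myelin RNA than the cord, and the name white matter is used below only as the label. The 4 spinal neuron markers summed to 2.76 to 6.54 FPKM in white matter and 65.6 to 105 in cord, and the 4 striatal markers to 17.0 to 82.2 and 16.5 to 24.8. Summed levels of the 5 astrocyte markers ran from 262 to 1223 FPKM in white matter and from 1227 to 2704 in cord. Gfap had the highest mean of them, at 405 and 1567. Slc1a3 alone of the 5 ran the other way, at 121 ± 16.1 and 44.4 ± 5.22 (SD). Those of the 5 microglia and macrophage markers ran from 45.5 to 225 and from 84.8 to 310, and those of the 2 progenitor markers from 8.76 to 24.3 and from 14.8 to 24.6. In tissue of mixed cells, fewer cells of a type and less RNA per cell cannot be told apart.

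Of the AMPA subunits, Gria1, Gria2 and Gria3 were higher in white matter than in spinal cord and Gria4 was not. In the 8 white matter libraries Gria2 was the highest of all 9 genes, from 59.1 to 93.6 FPKM with a median of 78.9, and in the 12 cord libraries it was from 14.1 to 26.6 with a median of 17.6. The groups did not overlap, and white matter exceeded cord by 2.04 ± 0.06 (SE) on the log2 scale, with a limma adjusted p of 7.64e-16. Gria1 was at 27.6 to 41.7 FPKM in white matter, median 34.2, and at 7.34 to 13.5 in cord, median 8.60, a log2 difference of 1.87 ± 0.08 (SE) with a limma adjusted p of 7.73e-14. Gria3 was at 28.9 to 56.1, median 44.1, and at 10.7 to 15.8, median 13.4, a log2 difference of 1.72 ± 0.08 (SE) with a limma adjusted p of 3.28e-13. Neither gene overlapped between the tissues. Gria4 did not follow this pattern. It was at 18.2 to 32.8 FPKM in white matter, median 28.6, and at 22.1 to 39.1 in cord, median 30.7, with overlapping groups and a log2 difference of -0.09 ± 0.08 (SE) with a limma adjusted p of 0.36.

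Among the NMDA receptor genes, Grin2b showed the largest difference of the 9 genes. It was at 22.9 to 39.9 FPKM in white matter, median 35.9, and at 3.66 to 6.40 in cord, median 4.43, a 7.20-fold or log2 difference of 2.85 ± 0.10 (SE) with a limma adjusted p of 3.58e-15. Grin2a was at 15.6 to 31.2, median 26.8, and at 4.96 to 9.47, median 6.41, a log2 difference of 1.92 ± 0.10 (SE) with a limma adjusted p of 1.39e-12. Grin1 was at 29.6 to 48.5, median 42.1, and at 14.7 to 28.9, median 20.1, a log2 difference of 1.04 ± 0.07 (SE) with a limma adjusted p of 7.78e-11. None of these 3 genes overlapped between the tissues. Grin2d, the scarcest of the 9 genes in every library, ran the other way. It was at 0.657 to 1.15 FPKM in white matter, median 0.788, and at 1.32 to 2.29 in cord, median 1.81, without overlap and with a log2 difference of -1.11 ± 0.11 (SE) with a limma adjusted p of 4.31e-08. Grin2c was at 5.67 to 9.13 FPKM in white matter, median 6.86, and at 5.44 to 10.7 in cord, median 7.63, and the groups overlapped, with a log2 difference of -0.13 ± 0.13 (SE) with a limma adjusted p of 0.36.

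In this comparison 7 of the 9 genes passed, 6 higher and 1 lower in white matter, while 72.2% of all genes tested passed, 25.0% higher and 47.1% lower. The same 7 had an unadjusted p under 0.05, against 74.2% of all genes. They were also those without overlap, 6 wholly above and 1 wholly below, against 27.1% of all genes, 10.3% above and 16.8% below. The median log2 fold change of the 9 genes was 1.72 and that of all genes was -0.18. With quantile normalization the median of all genes was -0.04 and the same 7 genes passed in the same directions.

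**Figure D1:**
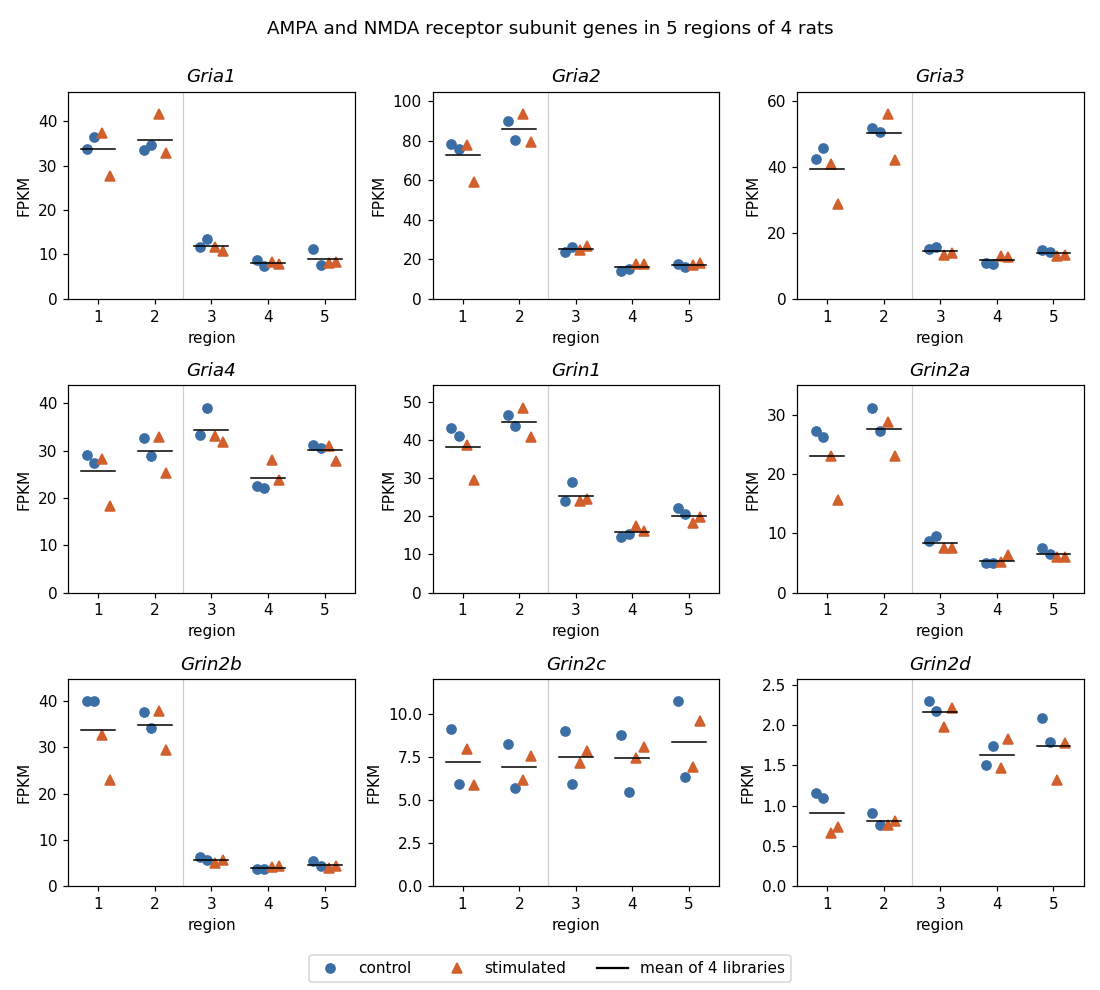
FPKM (linear axis from 0) of each receptor gene in the 5 regions, with 1 point per library, circles for control and triangles for stimulated animals, and a bar at each region mean. Gria1, Gria2, Gria3, Grin1, Grin2a and Grin2b are higher in regions 1 and 2 than in the cord, the tissues overlap for Gria4 and Grin2c, and Grin2d is higher in the cord.

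The order of the subunits was nearly fixed within a tissue. In 8 of 8 white matter libraries the AMPA subunits ranked Gria2, Gria3, Gria1, Gria4, and in 12 of 12 cord libraries they ranked Gria4, Gria2, Gria3, Gria1. Gria4 was the highest of all 9 genes in 12 of 12 cord libraries. As a share of the summed FPKM of the 4 AMPA genes, Gria4 was 14.9% ± 0.778 in the white matter libraries (SD, n = 8) and 40.9% ± 2.03 in those of the cord (SD, n = 12). Gria2 made up 42.5% ± 1.23 and 27.0% ± 2.52, Gria3 23.9% ± 1.55 and 18.8% ± 1.55, and Gria1 18.7% ± 1.47 and 13.3% ± 1.32. The sum itself was 187 ± 26.1 FPKM in white matter and 72.3 ± 12.1 in cord. These shares are of RNA, and no test was made on them because they combine the genes.

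The Grin2 genes ranked Grin2b, Grin2a, Grin2c, Grin2d in 8 of 8 white matter libraries. In cord, Grin2c was first in 9 of 12 libraries and Grin2a in the other 3, followed by Grin2b and Grin2d in every library. Grin2b was 50.7% ± 1.99 of the summed Grin2 FPKM in the white matter libraries (SD, n = 8) and 22.5% ± 1.57 in those of the cord (SD, n = 12). Grin2a made up 37.3% ± 2.21 and 31.8% ± 3.84. Grin2c was 10.6% ± 2.08 in white matter and 36.9% ± 5.68 in cord, and Grin2d 1.29% ± 0.233 and 8.78% ± 1.00. The ratio of Grin2b to Grin2a was 1.36 ± 0.115 in white matter and 0.714 ± 0.0538 in cord. Grin1 relative to the Grin2 sum was 0.618 ± 0.0448 and 0.969 ± 0.139.

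**Figure D2:**
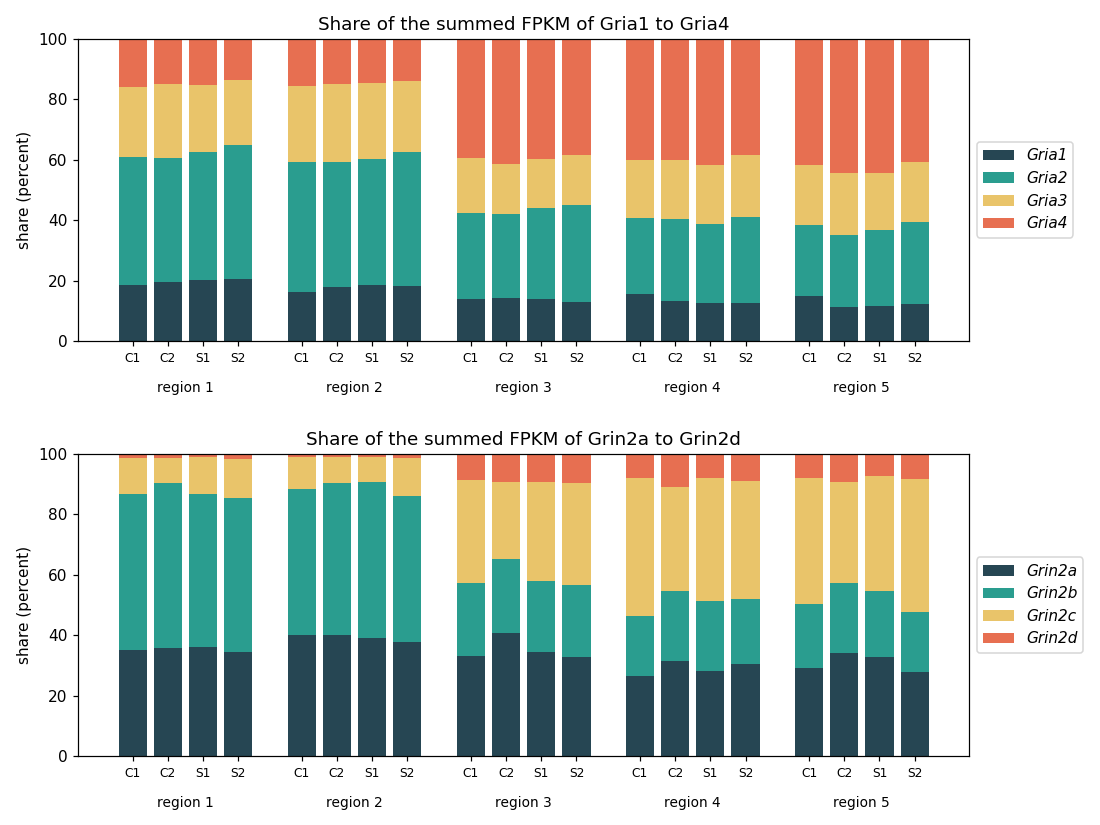
Share (percent, stacked to 100) of each gene in the summed FPKM of the AMPA genes (upper) and of the Grin2 genes (lower), with 1 bar per library, C for control and S for stimulated animals. The Gria4 band is 13.6 to 15.9% in white matter and 38.3 to 44.5% in cord, and the Grin2b band is 48.2 to 54.5% and 19.9 to 24.4%.

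Promoters are shown for the 4 genes of the 9 that had one in the RefSeq table (build GRCr8), because they include Gria4, Grin2c and Grin2d, the genes that were not higher in white matter, beside Grin1, which was. Each runs from 250 bases before to 50 bases after the annotated start, on the minus strand. Capitals mark a GC box (GGGCGG) or an E-box (CAGCTG), searched on both strands together with the cAMP response element TGACGTCA.
Gria4 (chr8:10319832-10320131): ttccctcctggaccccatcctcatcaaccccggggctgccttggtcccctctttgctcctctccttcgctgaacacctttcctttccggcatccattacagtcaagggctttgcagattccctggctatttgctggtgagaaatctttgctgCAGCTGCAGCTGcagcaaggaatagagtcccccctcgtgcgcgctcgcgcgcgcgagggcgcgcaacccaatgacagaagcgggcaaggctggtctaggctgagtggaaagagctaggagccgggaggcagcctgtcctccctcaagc
Grin1 (chr3:28528705-28529004): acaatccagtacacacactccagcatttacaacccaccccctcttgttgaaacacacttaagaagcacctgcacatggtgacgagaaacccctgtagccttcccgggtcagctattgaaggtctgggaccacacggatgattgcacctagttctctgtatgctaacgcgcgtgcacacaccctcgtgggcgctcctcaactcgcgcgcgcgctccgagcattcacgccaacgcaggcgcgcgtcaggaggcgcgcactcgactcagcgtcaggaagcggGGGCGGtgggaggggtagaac
Grin2c (chr10:101005089-101005388): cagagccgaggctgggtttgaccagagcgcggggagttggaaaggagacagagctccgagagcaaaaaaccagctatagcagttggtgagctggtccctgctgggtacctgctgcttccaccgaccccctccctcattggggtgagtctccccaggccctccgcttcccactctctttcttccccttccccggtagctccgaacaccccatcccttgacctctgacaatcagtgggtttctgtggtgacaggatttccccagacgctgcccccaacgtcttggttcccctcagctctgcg
Grin2d (chr1:105481187-105481486): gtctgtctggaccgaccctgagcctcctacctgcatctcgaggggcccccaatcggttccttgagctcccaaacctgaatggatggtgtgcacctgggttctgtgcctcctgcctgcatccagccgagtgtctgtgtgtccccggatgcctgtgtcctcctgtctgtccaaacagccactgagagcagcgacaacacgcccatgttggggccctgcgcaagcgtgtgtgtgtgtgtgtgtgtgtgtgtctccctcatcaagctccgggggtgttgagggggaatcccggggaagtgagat
The Gria4 window held 2 E-boxes, which 15.1% of the 33469 promoters of this length hold at least once, and the Grin1 window held 1 GC box, which 33.1% hold. The windows of Grin2c and Grin2d held none of the 3 motifs, and TGACGTCA, present in 1.83% of promoters, was in none of the 4. Their GC content was 59.7 to 60.7%, against a median of 51.7% over all promoters, and the Grin1 window held 25 CpG dinucleotides where the median was 7.

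Most receptor genes were lower at the lesion than in the rostral cord. Gria2 was at 23.8, 26.2, 25.0 and 26.6 FPKM in region 3 (control animals 1 and 2, then stimulated animals 1 and 2) and at 14.1, 15.0, 17.5 and 17.7 in region 4. All 4 rostral libraries were above all 4 lesion libraries, and region 3 was 1.59-fold higher, or 0.66 ± 0.10 (SE) on the log2 scale, with a limma adjusted p of 0.000255. Grin1 was at 24.0, 28.9, 24.0 and 24.4 rostral to the injury and at 14.7, 15.3, 17.4 and 16.1 at the lesion, again without overlap, a log2 difference of 0.67 ± 0.11 (SE) with a limma adjusted p of 0.000477. Grin2a fell from 8.31 ± 0.968 to 5.39 ± 0.640 FPKM (SD, n = 4), Gria1 from 11.9 ± 1.09 to 8.09 ± 0.642, Gria4 from 34.4 ± 3.23 to 24.1 ± 2.73 and Grin2b from 5.69 ± 0.542 to 4.05 ± 0.369. Their log2 fold changes of region 3 over region 4 were 0.63, 0.56, 0.51 and 0.49, with limma adjusted p-values of 0.00735, 0.00360, 0.0103 and 0.0275. Gria3 (0.30, SE 0.12, limma adjusted p = 0.087) and Grin2d (0.41, SE 0.17, limma adjusted p = 0.10) did not pass, although their groups did not overlap. Grin2c was at 7.47 ± 1.28 and 7.44 ± 1.44 FPKM rostral to the injury and at the lesion, with overlapping values and a log2 difference of 0.01 ± 0.20 (SE) with a limma adjusted p of 0.98.

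In all, 6 of 9 genes were lower at the lesion than rostral to it and 0 were higher, where 19.6% of all genes tested passed, 12.8% lower and 6.78% higher at the lesion. At an unadjusted p under 0.05 there were 8 of 9, against 34.7%. Values of 8 of 9 genes did not overlap, all lower at the lesion, against 28.8% of all genes, 15.7% lower and 13.0% higher. The median log2 fold change was 0.51, and 0.02 over all genes. Gria2 and Grin1 passed with each of the 4 animals left out, with adjusted p-values of at most 0.0221 and 0.0317. The count fell to 3 without control animal 1 and to 2 without control animal 2, where 6.43% and 3.46% of all genes passed, and without stimulated animal 1 the adjusted p-values were 0.0519 for Grin2a and 0.0764 for Grin2b. Neuronal and glial markers differed between the same regions. Of the 5 pan-neuronal markers tested, 4 were lower at the lesion, with a median log2 fold change of 0.65, and the summed level of the 6 markers was 808 to 1032 FPKM in region 3 and 552 to 687 in region 4. The spinal neuron markers were split. Slc17a6 was lower at the lesion (0.93, limma adjusted p = 0.000412). The log2 fold changes of Slc6a5 (0.40), Slc5a7 (-0.38) and Chat (-0.38), region 3 over region 4, did not pass. Of the 5 microglia and macrophage markers 3 were higher at the lesion, with summed levels of 84.8 to 125 and 159 to 310. Astrocyte markers summed to 1227 to 1671 rostral to the injury and 1911 to 2704 at the lesion, without overlap, although 0 of the 5 passed singly. Their log2 fold changes of region 3 over region 4 were negative for Gfap (-0.76), Aqp4 (-0.36) and Gja1 (-0.15). Those of Slc1a3 (0.20) and Aldh1l1 (0.01) were positive. The part of these in the receptor values was not tested.

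**Figure D3:**
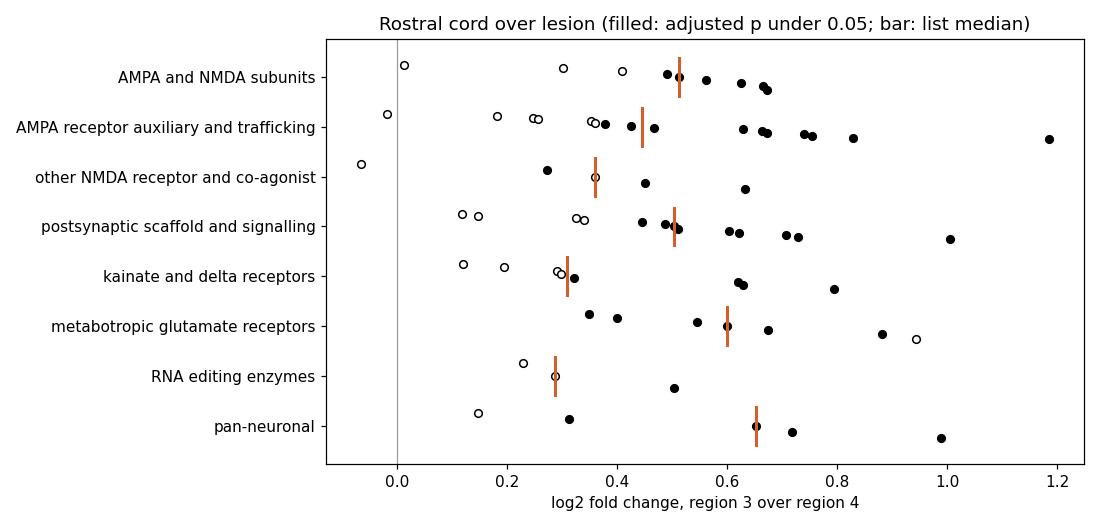
Log2 fold change of rostral cord (region 3) over lesion (region 4) for every tested gene of 8 lists, 1 point per gene, filled where the limma adjusted p was under 0.05, with a bar at the list median. The medians run from 0.29 for the RNA editing enzymes to 0.65 for the pan-neuronal markers, and that of the AMPA and NMDA subunits is 0.51.

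Caudal to the injury, Gria2 and Gria1 were lower than rostral to it. Gria2 was at 17.6, 16.3, 17.3 and 18.4 FPKM in region 5, below all 4 libraries of region 3, by a log2 difference of -0.55 ± 0.10 (SE) with a limma adjusted p of 0.00421. Gria1 was at 11.2, 7.72, 8.16 and 8.38 in region 5 and at 11.8, 13.5, 11.7 and 10.9 in region 3, with control animal 1 inside the range of the rostral libraries and a log2 difference of -0.44 ± 0.12 (SE) with a limma adjusted p of 0.0440. These were the 2 of 9 genes that passed, both lower, where 4.32% of all genes passed, 1.55% lower and 2.77% higher. At an unadjusted p under 0.05 there were 5 of 9, against 24.7%. Gria4, Grin1 and Gria2 did not overlap between these regions, 3 of 9 and all lower, against 25.5% of all genes, 5.02% wholly below and 20.5% wholly above. Neither call was held by every subset of animals. Without stimulated animal 1 or without control animal 2 no gene of the 9 passed, against 0.357% and 0.662% of all genes, and without control animal 1 only Gria2 did, against 0.898%. Without stimulated animal 2 there were 4 genes, all lower in region 5, against 9.31%. Pan-neuronal markers moved in both directions here, with 2 higher and 1 lower in region 5. Of the spinal neuron markers, Slc5a7 (1.00) and Chat (1.02) passed as higher in region 5 and Slc17a6 (-0.52) as lower. Slc6a5 (-0.15) did not pass. Astrocyte markers summed to 1227 to 1671 FPKM in region 3 and 2233 to 2580 in region 5. Microglia and macrophage markers summed to 84.8 to 125 and 166 to 191. Both sums were without overlap, although 0 of 5 markers passed singly in either list. Among the astrocyte markers, Slc1a3 had a negative log2 estimate (-0.29), while Gfap (0.90), Aqp4 (0.40) and Aldh1l1 (0.13) had positive ones. The part of these in the receptor values was not tested.

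Between region 5 and the lesion none of the 9 genes passed in limma, where 7.99% of all genes did (7.06% higher and 0.934% lower caudally), and 2 had an unadjusted p under 0.05, against 29.0% of all genes. The estimates for the 9 genes were all positive, from 0.08 to 0.34, with a median of 0.16 beside 0.14 over all genes, but those of Gria1 and Gria2 turned negative with quantile and upper-quartile scaling and that of Grin2d with the latter. Grin1 was at 22.2, 20.5, 18.2 and 19.7 FPKM caudal to the lesion, above every lesion library, with a log2 difference of 0.34 ± 0.11 (SE) with a limma adjusted p of 0.051. With the animal as a block, which pairs regions of the same rat, its adjusted p was 0.0404, and 12.9% of all genes passed. Grin1 and Gria3 were the genes without overlap, 2 of 9 and both higher, against 18.1% of all genes, 16.3% wholly above and 1.84% wholly below. Without stimulated animal 2, Gria4, Grin1 and Grin2a passed, with adjusted p-values of 0.0367, 0.0392 and 0.0398, and 7.85% of all genes did. Of the 5 pan-neuronal markers 3 were higher in region 5. No spinal neuron marker passed, with log2 estimates from 0.25 for Slc6a5 to 0.64 for Chat.

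The hemisphere below the array was set against the opposite one. None of the 9 genes passed between regions 1 and 2 in limma, where 8.61% of all genes did (6.86% higher and 1.76% lower in region 1), and 3 of 9 had an unadjusted p under 0.05, against 25.2%. Gria3 had the smallest p. It was at 42.4, 45.8, 40.8 and 28.9 FPKM in region 1 and at 51.9, 50.7, 56.1 and 42.2 in region 2, a log2 difference of -0.36 ± 0.12 (SE) with a limma adjusted p of 0.070. Region 2 was higher than region 1 in 4 of 4 animals for Gria3, Gria2, Gria4, Grin1 and Grin2a, and in 1 to 2 of 4 for the other genes. For Gria3, however, the library of stimulated animal 2 in region 2 lay within the range of region 1. Without that animal the log2 fold change was -0.30 and the limma adjusted p 0.0280, and 24.2% of all genes passed. Gria2 was the 1 gene of 9 whose regions did not overlap, at 59.1 to 78.3 and 79.5 to 93.6, against 7.57% of all genes, 3.16% wholly below and 4.40% wholly above, with a log2 difference of -0.24 ± 0.10 (SE) with a limma adjusted p of 0.12. With upper-quartile scaling Gria2, Gria3 and Grin1 passed, all lower in region 1, and the share of all genes that passed was 14.8%. Oligodendrocyte markers differed here, with 4 of 5 higher in region 1, and none of the 5 pan-neuronal markers tested passed. Gfap (2.04) and Aqp4 (0.86) of the astrocyte markers and Cd68 (3.12) of the microglia and macrophage markers passed, higher in region 1 with overlapping values. Aldh1l1 had a negative estimate (-0.26) that did not pass. Of the spinal neuron markers, Slc6a5 (3.10, at 2.17 and 0.207 FPKM) was higher and Slc17a6 (-1.02) lower. The part of these in the receptor values was not tested.

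The levels of neighbouring regions, ranked by mean log2 FPKM, were then set against their spread. For Gria1, Gria2, Gria3, Grin1, Grin2a and Grin2b the order began with region 2, region 1 and region 3 and ended with region 5 and region 4. The step from region 1 to region 3 passed in each of the 6 genes, from 0.58 for Grin1 (SE 0.11, limma adjusted p = 0.000146) to 2.54 for Grin2b (SE 0.15, limma adjusted p = 6.00e-11). The step from region 3 to region 5 passed for Gria1 and Gria2, and no other neighbouring step of these 6 genes did. Grin2d ran from region 3 through regions 5 and 4 to regions 1 and 2, with a single step that passed, 0.88 between regions 4 and 1 (SE 0.17, limma adjusted p = 0.000290). No neighbouring step passed for Gria4, ranked 3, 5, 2, 1, 4, or for Grin2c, ranked 5, 3, 4, 1, 2.

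**Figure D4:**
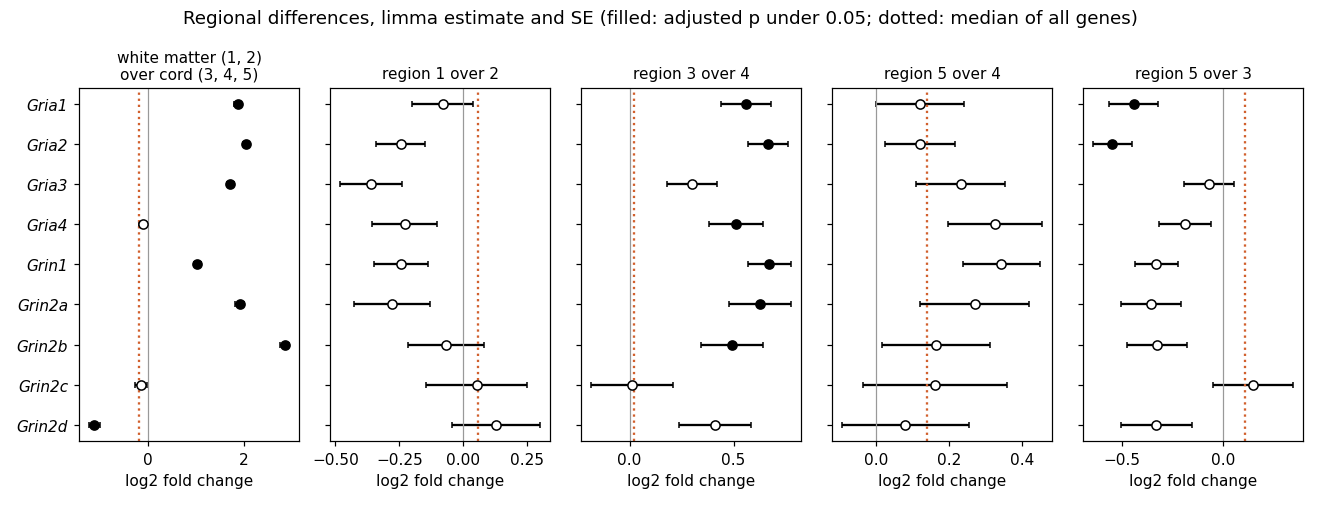
Log2 fold change with its SE for the 9 receptor genes in 5 comparisons of regions (each axis has its own range), filled where the limma adjusted p was under 0.05, with a dotted line at the median of all genes. Filled points are 7 for white matter over cord, 6 for region 3 over 4, 2 for region 5 over 3, and 0 in the other panels.

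Stimulated and control animals were compared within each region, with 2 animals against 2. None of the 9 genes passed in any region in limma, where 0% of all genes did in regions 1 to 4 and 0.0197% in region 5 (0.00657% higher and 0.0131% lower). The exact two-sided permutation test of a single gene cannot go below p = 0.333 in this design. An unadjusted p under 0.05 was found for 1 of 9 genes below the array, 2 of 9 rostral to the injury and 0 of 9 elsewhere, against 5.44%, 1.41%, 3.43%, 2.24% and 3.59% of all genes in regions 1 to 5. Grin2d in region 1 was at 1.15 and 1.09 FPKM in control animals and at 0.657 and 0.732 in stimulated animals, a log2 difference of -0.70 ± 0.19 (SE) with a limma adjusted p of 0.71. Grin2b in region 1 was at 39.9 and 39.9 in control animals and at 32.6 and 22.9 in stimulated animals, a log2 difference of -0.55 ± 0.21 (SE) with a limma adjusted p of 0.71. Grin2a in region 1 was at 27.3 and 26.3 and at 23.1 and 15.6, a log2 difference of -0.49 ± 0.22 (SE) with a limma adjusted p of 0.71. In each of these genes both stimulated libraries were below both controls, and for Grin2a and Grin2b stimulated animal 2 was the lower. Without stimulated animal 2 their log2 differences were -0.21 and -0.29, and without stimulated animal 1 they were -0.78 and -0.80.

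In region 1 the estimates of all 9 genes were negative, with a median of -0.32 beside -0.03 over all genes, and 5 of 9 did not overlap, all lower, against 40.6% of all genes, 19.5% wholly below and 21.2% wholly above. Pan-neuronal markers summed to 1170 and 1179 FPKM in the controls and to 1095 and 790 in the stimulated animals, with a median log2 fold change of -0.32. Snap25 (-0.45), Syt1 (-0.39) and Rbfox3 (-0.32) were negative, while Stmn2 (0.03) and Tubb3 (0.0008) were near 0. Cortical excitatory markers summed to 367 to 378 in the controls and 258 to 296 in the stimulated animals, and all 5 were wholly below. Striatal markers summed to 27.4 and 26.0 in the controls and to 82.2 and 17.0 in stimulated animals 1 and 2. Astrocyte markers summed to 645 to 695 and 1071 to 1223, and microglia and macrophage markers to 99.5 to 111 and 151 to 202. Aldh1l1 (-0.08) and P2ry12 (-0.008) had negative log2 estimates, and the other markers of both lists had positive ones. The part of these in the receptor values was not tested. In region 2 no gene of the 9 was without overlap, against 27.0% of all genes (20.2% wholly above, 6.77% wholly below), and the median was -0.08, beside 0.08 over all genes.

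In the cord the estimates were mostly negative in regions 3 and 5 and positive in region 4. Rostral to the injury Grin2a was at 8.74 and 9.47 FPKM in controls and at 7.45 and 7.58 in stimulated animals, a log2 difference of -0.28 ± 0.08 (SE) with a limma adjusted p of 0.96. Gria3 there was at 15.3 and 15.8 and at 13.3 and 14.0, a log2 difference of -0.18 ± 0.06 (SE) with a limma adjusted p of 0.96. At the lesion all 9 estimates were positive, with a median of 0.19 beside 0.00 over all genes, and 6 of 9 were without overlap, all higher, against 20.2% of all genes, 12.5% wholly above and 7.69% wholly below. Gria2 at the lesion was at 14.1 and 15.0 in controls and at 17.5 and 17.7 in stimulated animals, a log2 difference of 0.28 ± 0.11 (SE) with a limma adjusted p of 1. Pan-neuronal estimates at the lesion were also positive in 5 of 5 markers tested, with a median of 0.13. In region 3 that of Rbfox3 was 0.12, and the others were negative, from -0.24 for Syt1 to -0.14 for Snap25. In region 5 Stmn2 (0.15) and Tubb3 (0.11) were positive, while Snap25 (-0.23), Rbfox3 (-0.03) and Syt1 (-0.005) were negative. The part of these in the receptor values was not tested. Rostral to the injury 5 of 9 genes were without overlap, all lower, against 29.9% of all genes (24.7% wholly below, 5.14% wholly above), with a median of -0.15 beside -0.07 over all genes. In region 5 there were again 5 of 9, all lower, against 24.6% (6.07% wholly below, 18.5% wholly above), with a median of -0.17 beside 0.05 over all genes. The same 4 rats supplied every region, so these counts are not independent of each other.

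Whether stimulation differed between regions was tested on differences within each animal. For regions 1 and 2, estimates of the difference were negative in all 9 genes, with a median of -0.29 beside -0.13 over all genes, and none passed in limma, where 0% of all genes did. With upper-quartile scaling the estimate of Grin2c turned positive. Only Grin2b had an unadjusted p under 0.05, against 3.78% of all genes, with a log2 difference of -0.44 ± 0.13 (SE) and a limma adjusted p of 0.88. Over all 10 pairs of regions, 0 of 90 tests passed. Among all 15210 genes, 2 passed when region 3 was set against region 5. A single gene passed when region 4 was set against region 5, and 0 did in any remaining pair. Of the 90 tests, 8 had an unadjusted p under 0.05. These were 1 of 9 genes for regions 1 and 2, 4 of 9 for regions 1 and 4, where 8.30% of all genes had one, and 3 of 9 for regions 3 and 4, where 4.19% did, while the other pairs had 0 of 9 against 1.07% to 4.94%. The smallest adjusted p of the 90 tests was 0.52.

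**Figure D5:**
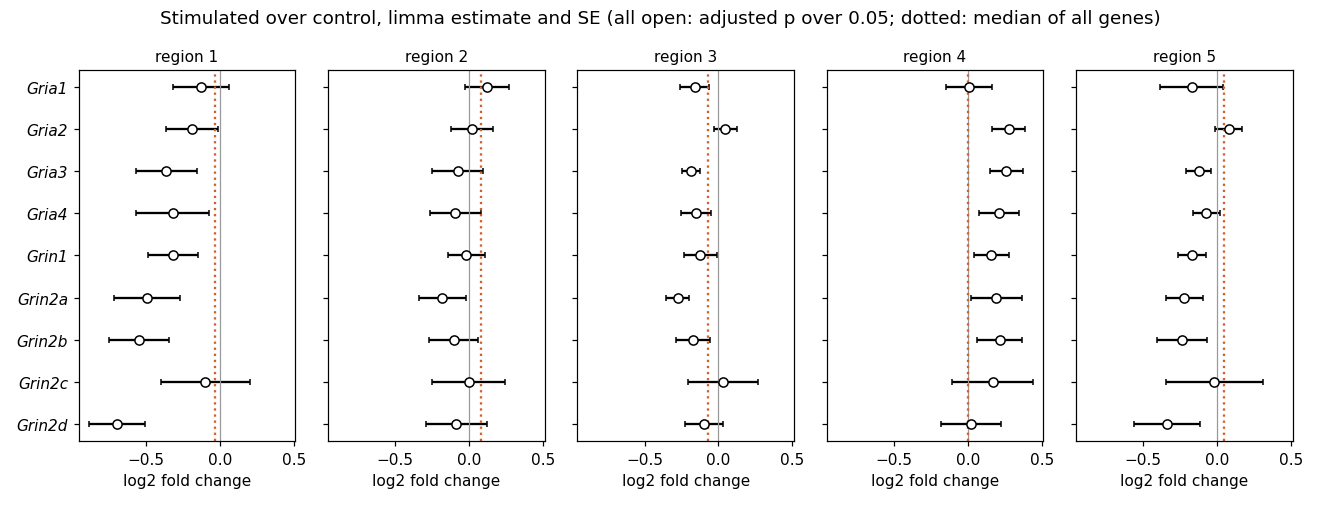
Log2 fold change of stimulated over control animals with its SE for the 9 receptor genes in each region (2 against 2 libraries), on 1 common axis, with a dotted line at the median of all genes. All points are open because no adjusted p was under 0.05, and the points lie left of 0 for all 9 genes in region 1 and right of 0 for all 9 in region 4.

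Genes that act with these receptors were read from the same fits. Of all genes tested, 25.0% passed as higher and 47.1% as lower in white matter than in cord. Rostral to the injury 12.8% were higher and 6.78% lower than at the lesion. For regions 5 and 3, 4.32% of all genes passed, for regions 5 and 4 7.99%, and for regions 1 and 2 8.61%. The counts for the lists below stand beside these shares. Of 16 AMPA receptor auxiliary and trafficking genes tested, 12 were higher and 3 lower in white matter than in cord. Nptxr, a receptor for neuronal pentraxins that cluster AMPA receptors, was at 112 ± 21.5 FPKM in white matter and 8.39 ± 1.72 in cord, a log2 fold change of 3.74 (limma adjusted p = 3.62e-18). Cacng3, a transmembrane AMPA receptor regulatory protein (TARP), followed at 18.3 ± 3.90 and 2.50 ± 0.581, and Shisa7 at 5.76 ± 0.917 and 0.821 ± 0.206. Rostral cord exceeded the lesion in 10 of the 16, including the TARP genes Cacng5 at 1.19 and Cacng8 at 0.83 on the log2 scale, and Cnih2 (cornichon family) at 0.75. Region 5 was lower than region 3 for Cacng8 and Cacng3, region 5 exceeded the lesion for Pick1, and region 1 differed from region 2 in Cacng4 (higher), Cacng3 and Nptxr (both lower).

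All 13 postsynaptic scaffold and signalling genes were higher in white matter, with Camk2a, a calcium-dependent kinase of synapses, at 209 ± 48.8 FPKM and 7.0 ± 2.45 in cord, a log2 fold change of 4.93 (limma adjusted p = 9.79e-18). Dlgap1, a scaffold gene, differed by 2.64 on the log2 scale. Rostral cord exceeded the lesion in 9 of 13, led by Camk2a at 1.01, Camk2b at 0.73 and Shank1 at 0.71. Camk2a was lower in region 5 than in region 3, Homer2 and Camk2b higher in region 5 than at the lesion, and Shank3 lower in region 1 than in region 2.

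The 5 genes of other NMDA receptor subunits and the co-agonist system were split between the tissues. Grin3b, a glycine-binding subunit of motor neurons, was at 0.231 ± 0.0888 FPKM in white matter and 2.42 ± 0.481 in cord, a log2 fold change of -3.47 (limma adjusted p = 7.90e-14). Slc7a10, which carries D-serine and glycine, was at 4.50 ± 1.23 and 15.9 ± 3.20, and Neto1 at 13.9 ± 2.29 and 3.36 ± 0.425. In total 2 were higher and 3 lower in white matter, and 3 of 5 (Slc7a10, Grin3a and Srr, the D-serine synthase) were higher in rostral cord than at the lesion. Grin3b was also higher in region 1 than in region 2, at 0.288 ± 0.0575 and 0.174 ± 0.0802 FPKM. The groups overlapped, and its white matter levels were near the floor of 0.1, so its differences involving white matter rest on low values.

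Of 8 kainate and delta receptor genes, 4 were higher and 2 lower in white matter, where 72.2% of all genes passed. Grik3 differed by 1.86, Grik5 by 1.56 and Grik4 by -1.08 on the log2 scale. Rostral cord exceeded the lesion in 4 of 8, led by Grik1 at 0.79, and Grik3 was lower in region 5 than in region 3. Of 7 metabotropic receptor genes tested, 6 were higher and 1 lower in white matter, led by Grm2 at 3.38, and 6 of 7 were higher in rostral cord than at the lesion, led by Grm8 at 0.88. Grm4 was higher in region 5 than at the lesion, and Grm8 lower in region 5 than in region 3. Among the RNA editing enzymes, Adarb1, which edits the Gria2 transcript, was at 22.5 ± 3.36 FPKM in white matter and 30.4 ± 5.41 in cord, a log2 fold change of -0.43 (limma adjusted p = 8.72e-05). Adarb1 was also higher in rostral cord than at the lesion, by 0.50 on the log2 scale (limma adjusted p = 0.00894). Adarb2 was lower in white matter by a log2 fold change of -0.50, and Adar did not pass in either comparison, at -0.05 and 0.23. Editing itself is not seen in FPKM values.

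Finally, genes with the most similar profiles were listed for each receptor gene by the root mean square difference of log2 FPKM over the 20 libraries, each profile centred on its own mean, among 13483 genes. The nearest to Gria1 was the kainate receptor gene Grik3 (0.0908), followed by Vamp2 and Atxn1. Gria2 was nearest to Nol4 (0.0994), Necab1 and Kifc2, and Gria3 to Unc13a (0.0916), Kcnma1 and Pip5k1c. Gria4, whose own log2 values varied little (SD 0.25), was nearest to Ssbp2 (0.0731), Zfp612 and Got1. Grin1 was nearest to Dok6 (0.0825), Syp, which encodes the synaptic vesicle protein synaptophysin, and Sema6b. Grin2a was nearest to the calcium channel gene Cacna1i (0.0958), Gabbr2 and Fbxo41. Grin2b was nearest to Fbxl16 (0.158), the scaffold gene Dlgap1 and Cobl. Grin2c was nearest to Sbf1 (0.169), Tnfrsf11b and Gga1, and Grin2d to Atp8a2 (0.168), Fam13a and Kif26b. The libraries share 4 animals and the tissue step, so the distances are a description.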

How the data were processed

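RNA was measured in 20 libraries, from 5 regions of 4 rats. The authors depleted ribosomal RNA and aligned reads to Rnor6, and the submitters' processing notes name TopHat2 2.1.0 and Cufflinks 2.2.1. The deposited FPKM values have 1 column per library and 0 columns without a sample, and the authors had set smaller values to 0.1, which 39.7% of values hold. FPKM values carry no read numbers, so the depth behind a gene is unknown. P-values for stimulation rest on the spread between these 4 rats. Those for comparisons of regions rest on the spread of the 20 libraries, taken as independent although 4 rats supplied them. The kit was stranded, and whether strand was used in counting is not given in the sources used here.

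Values were log2-transformed without further scaling, and genes with at least 1 FPKM in any library were kept. Linear models over all genes used limma 3.58.1 (R 4.3.3), with variances moderated along a mean trend. Stimulation was modelled within the 4 libraries of a region, regions in a single model of all 20 libraries, and differences of effects on differences within animals. Benjamini-Hochberg adjustment ran over all genes tested, with a threshold of 0.05. Where a symbol was repeated, the one of highest mean FPKM was taken, and white matter was the mean of regions 1 and 2.

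The genes and lists were chosen with earlier results of these data known. All 9 receptor genes were named. From each receptor or synapse list, up to 3 genes per comparison of regions were named, ordered by the size of the log2 difference among genes past the threshold, and 3 similar profiles per receptor gene were named among genes with a mean of at least 1 FPKM. The rule also picks an item that is not reported here, so these names are not complete. Sample titles tie the 5 libraries of a rat together, and deviations of same-animal libraries from region means correlated across genes at 0.65 for regions 1 and 2 and at -0.14 to 0.23 for the other pairs.

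Alternatives were log2(FPKM + 1), other filters, quantile and upper-quartile scaling, no trend, 1 model of all libraries, blocks, and each animal left out. In simulated data of 15210 genes with 200 changed by a log2 fold change of 1, the test recovered 171 for white matter against cord, 147 for region 3 against region 4 and 0 for stimulation in 1 region, where 143 were recovered at a log2 fold change of 2.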

Additional observations from a re-analysis of the deposited data

Results flagged for a closer look

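Among 54 groups of 4 or 8 libraries in which each gene's highest and lowest library was compared with the rest, 4 values from 3 libraries stood apart by Dixon's test, and chance gives about 1 in 20 groups. Both flags in region 1 came from stimulated animal 2. Gria2 there was at 59.1 FPKM, against 76.1 to 78.3 in the other 3 libraries, and Gria4 at 18.2 FPKM, against 27.5 to 29.2. Grin1 in region 3 was at 28.9 FPKM in control animal 2, against 24.0 to 24.4. Grin2a in region 4 was at 6.34 FPKM in stimulated animal 2, against 4.96 to 5.18.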

How the results depend on the processing

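In simulated data with 2 animals per group, no stimulation change of 1 on the log2 scale was recovered. None of the 9 genes passed for stimulation, or for its difference between regions 1 and 2, under any alternative, which says little about stability, since leaving out an animal set 1 library against 2. White matter against cord gave 7 genes under every alternative, where 40.9% to 78.2% of all genes passed. Between regions 1 and 2, quantile normalization gave 1 gene (11.7% of all genes) and upper-quartile scaling 3 (14.8%), where the main count was 0 (8.61%). Between regions 5 and 3, the main count was 2 (4.32%). Quantile normalization and upper-quartile scaling each gave 3 genes there (7.29% and 7.69% of all genes). No filter on low values and eBayes without trend each left 1 gene of the 2 (1.48% and 4.02%). With an animal left out, the counts ran from 0 to 1 for regions 1 and 2 (0.172% to 24.2% of all genes). They ran from 2 to 7 for regions 3 and 4 (3.46% to 32.2%). For regions 5 and 4 they ran from 0 to 3 (0.0330% to 7.85%), and for regions 5 and 3 from 0 to 4 (0.357% to 9.31%). The shares of Gria2, Gria4 and the Grin2 genes and the ratio of Grin1 to the Grin2 sum moved by less than 1 SD, and the other shares and ratios were not recomputed. The cause of these changes was not tested.

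Estimates near 0 changed sign for genes that had not passed. With quantile normalization these were Gria4 in white matter against cord (0.0095), Grin2c (-0.0423) and Grin2d (-0.131) between regions 1 and 2, Gria1 (-0.0086) and Gria2 (-0.0506) between regions 5 and 4, and Gria2 for stimulation in region 2 (-0.133). With upper-quartile scaling they were Grin2c between regions 1 and 2 (-0.0066) and between regions 3 and 4 (-0.0287), Gria1 (-0.0378), Gria2 (-0.0387) and Grin2d (-0.0781) between regions 5 and 4, and Gria2 for stimulation in region 2 (-0.0855). With an animal left out, estimates ran from -0.151 to 0.0058 for Gria4 in white matter against cord, and between regions 1 and 2 from -0.164 to 0.0296 for Grin2b, from -0.0520 to 0.189 for Grin2c and from -0.0023 to 0.238 for Grin2d. They ran from -0.0264 to 0.0363 for Grin2c between regions 3 and 4 and from -0.0526 to 0.160 for Grin2d between regions 5 and 4. Quantile normalization moved the median of all genes from 0.06 to -0.05 for regions 1 and 2, from 0.14 to 0.03 for regions 5 and 4, from 0.11 to -0.02 for regions 5 and 3, and from 0.08 to -0.06 for stimulation in region 2. It moved the share of all genes that passed from 19.6% to 31.8% for regions 3 and 4, from 7.99% to 3.09% for regions 5 and 4, and from 4.32% to 7.29% for regions 5 and 3. Genes higher and lower in the first region went from 1043 and 267 to 943 and 841 for regions 1 and 2, from 1074 and 142 to 275 and 195 for regions 5 and 4, from 422 and 235 to 435 and 674 for regions 5 and 3, and from 3808 and 7169 to 5054 and 6018 for white matter and cord.

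The replicate block with the animal, which pairs regions of the same rat, gave 1 gene, Grin1, between regions 5 and 4, and changed no other call in the comparisons of regions. Stimulated and control animals share only the numbers 1 and 2 in the labels. Deviations of same-numbered libraries correlated at -0.21, -0.10, -0.11, 0.32 and -0.16 in regions 1 to 5. With the replicate block by number, 0 of 9 genes passed in every region, and with crossed numbers, chosen after seeing these correlations, 0 passed in regions 1, 3 and 5.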

Other observations

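Grin2c passed in no comparison and varied between animals. Control animal 1 had the highest Grin2c of the 4 animals in 5 of 5 regions, from 8.25 to 10.7 FPKM. Control animal 2 ran from 5.44 to 6.33 and was lowest in 4 of 5, and in region 1 stimulated animal 2 was lowest, at 5.88 against 5.90. The stimulated animals were at 6.18 to 7.97 for animal 1 and 5.88 to 9.56 for animal 2. Grin2d was lowest in stimulated animal 1 in 5 of 5 regions. These patterns were noticed in the values and were not tested.

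The summed AMPA genes relative to Grin1 stood at 4.51 ± 0.146 in the white matter libraries (SD, n = 8) and 3.57 ± 0.218 in those of the cord (SD, n = 12). Within the cord the ratio was 3.41 ± 0.105 rostral to the injury, 3.79 ± 0.127 at the lesion and 3.50 ± 0.215 caudal to it (SD, n = 4 each), and the ranges of the regions rostral to the injury and at the lesion, 3.27 to 3.51 and 3.60 to 3.86, did not overlap. Grin2b relative to Grin2a was 1.46 ± 0.0451 below the array and 1.26 ± 0.0471 on the opposite side (SD, n = 4 each), with ranges of 1.41 to 1.52 and 1.21 to 1.32. These ratios were computed after the levels were seen and carry no test.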
